A study of Mus musculus with 6 samples.

Results

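On its centromeric side, *Hoxd13* adjoins a long stretch of mostly gene-free DNA. The landscape described here reaches from *Atp5g3* across *Lnpk* and *Evx2* to the end of *Hoxd13* itself, chr2:73908000-74671600 in the mm10 mouse genome. All merged ATAC-seq peaks whose midpoint lies in these 763.6 kb were taken, which gave 62 of the 61954 peaks of the table. ATAC-seq marks open chromatin by where the Tn5 transposase can insert sequencing adapters. The 4 libraries came from the distal part of E11.5 mouse forelimb buds, 2 from wild-type and 2 from Hox13-/- embryos on a mixed C57Bl/6 x 129 background. Per the study's methods the mutants lack both *Hoxa13* (the Hoxa13Str allele) and *Hoxd13* (the Hoxd13lacZ allele), so both genes are inactive in every cell, and a library holds 50000 cells of 1 embryo with left and right buds pooled. Each genotype therefore rests on 2 embryos. In such bulk samples, fewer cells of a type and less open chromatin per cell cannot be told apart. Accessibility is given as the rLog value, a log2-scale read level that is scaled for library size and pulled towards the peak's mean, so a difference of 1 is a 2-fold change and differences of weak peaks are understated most. Reads per peak are unknown, and a level also depends on the length of a peak. The table holds start-site peaks of 6 of 6 limb genes looked up (*Prrx1*, *Msx1*, *Tbx5*, *Hand2*, *Hoxa13* and *Hoxd13*), 13 peaks within 1 kb of their starts, but no gene of another tissue was compared, so the labelled tissue was not tested by this.

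The *HoxD* cluster lies between a pair of large regulatory domains. The one on the telomeric side serves the proximal limb, and the one on the centromeric side, the gene desert described here, holds the enhancers that act on *Hoxd13* and its neighbours in the forming digits. *Hoxd13* encodes the last homeodomain protein of the cluster, which together with HOXA13 patterns the hand and foot plate. *Evx2*, a homeobox gene of the even-skipped family, lies beside it in the opposite orientation and shares its digit enhancers. *Lnpk* encodes lunapark, a membrane protein that shapes the endoplasmic reticulum, and *Atp5g3* encodes subunit c of the mitochondrial ATP synthase. HOX13 proteins bind TAAA-containing strings, such as CAATAAA or TCATAAA or TCGTAAA.

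Stretches of the peaks on which the results turn are shown first, with the middle 240 bases of a peak or the whole of a shorter one. They are on the plus strand of GRCm38, the assembly behind mm10, and capitals mark a HOX13-type string (CAATAAA or TCATAAA or TCGTAAA, read on both strands, so that TTTATTG is CAATAAA on the other strand). They are the 6 peaks with the largest decreases and the 2 with the largest increases. Over the landscape a string was in 4 of the 20 peaks that fell, 1 of the 4 that rose (chr2:74380690-74381373, not shown) and 7 of the 38 that did not pass.
Peak 477.5 kb before *Hoxd13*, fell, chr2:74190686-74190925: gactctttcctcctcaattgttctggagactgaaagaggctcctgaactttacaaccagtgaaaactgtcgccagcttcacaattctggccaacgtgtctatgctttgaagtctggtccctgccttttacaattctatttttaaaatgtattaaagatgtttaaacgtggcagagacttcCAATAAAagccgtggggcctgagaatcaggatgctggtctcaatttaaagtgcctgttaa
Peak 592.4 kb before *Hoxd13*, fell, chr2:74075701-74075940: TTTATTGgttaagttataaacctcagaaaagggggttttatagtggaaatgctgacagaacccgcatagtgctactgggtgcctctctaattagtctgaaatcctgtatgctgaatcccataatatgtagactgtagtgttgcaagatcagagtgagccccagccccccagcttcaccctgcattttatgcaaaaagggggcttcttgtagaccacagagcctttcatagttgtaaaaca
Peak 463.7 kb before *Hoxd13*, fell, chr2:74204461-74204666: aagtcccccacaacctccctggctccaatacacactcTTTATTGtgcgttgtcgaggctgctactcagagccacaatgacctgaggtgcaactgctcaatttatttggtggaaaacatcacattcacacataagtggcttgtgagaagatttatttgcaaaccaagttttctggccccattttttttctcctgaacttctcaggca
Peak 275.1 kb before *Hoxd13*, fell, chr2:74393041-74393280: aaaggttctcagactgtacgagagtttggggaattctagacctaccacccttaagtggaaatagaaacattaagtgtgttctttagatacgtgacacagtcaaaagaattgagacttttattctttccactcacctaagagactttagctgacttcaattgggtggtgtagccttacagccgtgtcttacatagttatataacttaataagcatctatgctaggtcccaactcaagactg
Peak 479.9 kb before *Hoxd13*, fell, chr2:74188251-74188490: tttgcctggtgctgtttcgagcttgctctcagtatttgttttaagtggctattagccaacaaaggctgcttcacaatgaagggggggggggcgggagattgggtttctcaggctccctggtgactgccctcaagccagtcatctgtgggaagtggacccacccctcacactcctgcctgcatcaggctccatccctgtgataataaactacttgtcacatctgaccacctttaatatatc
Peak 48.3 kb before *Hoxd13*, fell, chr2:74619919-74620158: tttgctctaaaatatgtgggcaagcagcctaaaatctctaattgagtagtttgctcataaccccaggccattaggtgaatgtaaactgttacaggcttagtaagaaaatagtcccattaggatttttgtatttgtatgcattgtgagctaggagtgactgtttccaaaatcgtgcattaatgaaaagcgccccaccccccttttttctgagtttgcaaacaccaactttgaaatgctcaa
Peak 576.9 kb before *Hoxd13*, rose, chr2:74091290-74091529: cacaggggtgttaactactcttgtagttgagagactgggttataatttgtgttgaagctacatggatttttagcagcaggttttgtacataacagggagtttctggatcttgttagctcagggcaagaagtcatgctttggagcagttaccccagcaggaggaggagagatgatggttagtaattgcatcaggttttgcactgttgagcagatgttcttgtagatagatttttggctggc
Peak 402.4 kb before *Hoxd13*, rose, chr2:74265777-74266016: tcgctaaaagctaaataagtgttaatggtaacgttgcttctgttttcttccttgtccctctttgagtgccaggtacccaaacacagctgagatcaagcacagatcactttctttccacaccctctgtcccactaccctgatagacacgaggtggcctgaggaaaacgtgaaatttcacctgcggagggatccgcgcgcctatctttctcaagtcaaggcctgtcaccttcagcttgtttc
Distances here and in what follows run from the midpoint of a peak to the GENCODE start of *Hoxd13*.

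Accessibility of the landscape fell more often than it rose in Hox13-/- buds. Of its 62 peaks, 20 were lower and 4 were higher than in wild type at an adjusted p under 0.05 (limma, Benjamini-Hochberg over all 61954 peaks), and 38 did not pass. The lower peaks were 32.3% of the landscape, beside 8.31% of all peaks tested, and the higher ones were 6.45%, beside 11.4% of all peaks. The median difference over the 62 peaks was -0.19 on the log2 scale (range -1.31 to 0.72), beside -0.0052 over all peaks. In 32 of the 62 peaks both Hox13-/- libraries lay below both wild-type libraries, a pattern found in 29.6% of all peaks, and in 13 both lay above, beside 29.7%. The remaining 17 overlapped. By over 2-fold, 2 of the peaks fell, beside 0.224% of all peaks, and 3 fell with each of the 3 other scalings. The members' shares are descriptions next to those of the whole table and were not tested as a group. Centring each library on its median gave 21 lower and 4 higher peaks in the landscape, and over all peaks it turned 5146 lower and 7040 higher into 6811 lower and 6017 higher.

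**Figure D1:**
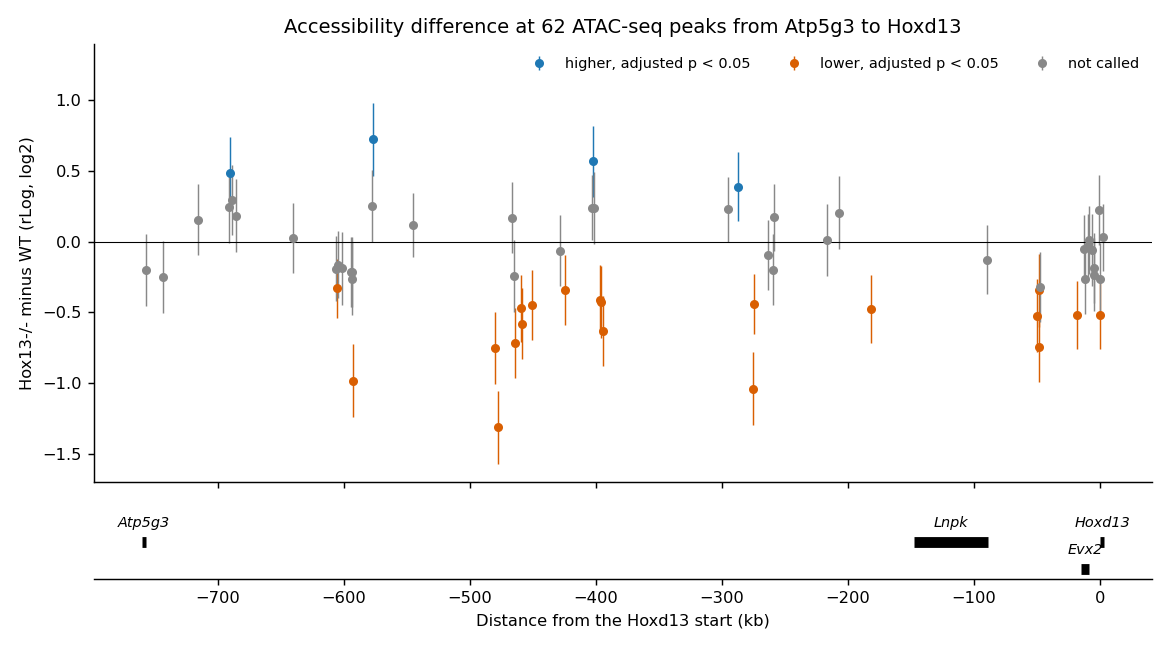
Difference in rLog (Hox13-/- minus wild type, log2 scale, with 95% intervals from limma) of the 62 peaks against the distance in kb from the *Hoxd13* start, with the 4 genes drawn along the bottom. Of the 20 lower peaks, 15 lie in the gene desert, 4 between *Lnpk* and *Evx2* and 1 at the *Hoxd13* start, the 4 higher ones all lie in the gene desert, and the widest spacings between neighbouring peak midpoints are 99.4 kb and 92.4 kb.

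The median peak of the landscape was weaker than that of the table. The median wild-type rLog was 4.28, beside 4.71 for all peaks, and the single values ran from 2.94 to 7.43. The median over the 62 peaks was 4.28 in each wild-type library, against 4.05 and 4.08 in the Hox13-/- libraries. Replicates differed by a median of 0.127 in wild type and 0.102 in Hox13-/-, and by at most 0.550 and 0.495.

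**Figure D2:**
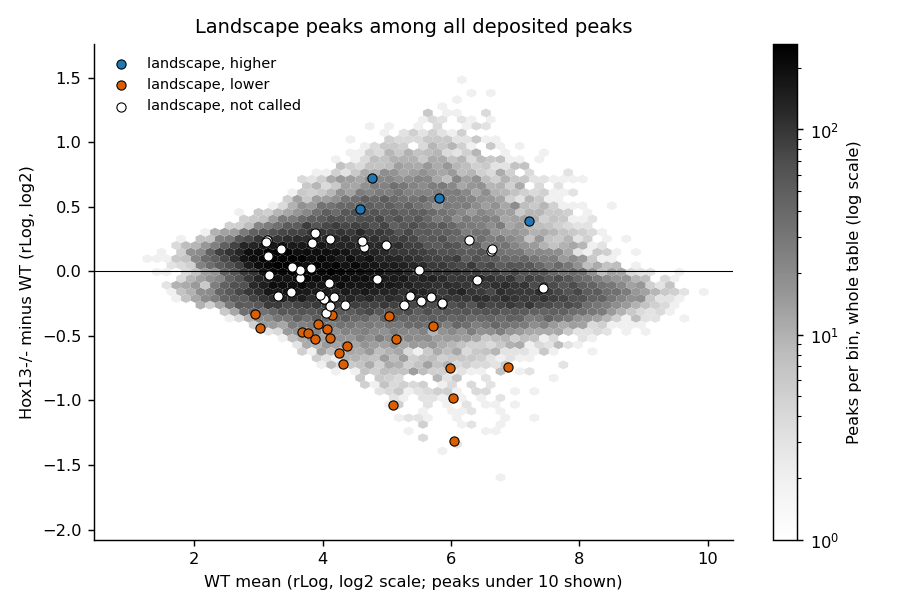
Mean wild-type rLog (log2 scale, horizontal) against the difference Hox13-/- minus wild type (vertical) for the landscape peaks, over the density of all peaks of the table with a wild-type mean under 10. Landscape points sit mostly below 0, from -1.31 to 0.72, at wild-type means of 2.94 to 7.43.

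The gene desert between *Atp5g3* and *Lnpk* held 44 peaks, of which 15 fell (34.1%, beside 8.31% of all peaks) and 4 rose (9.09%, beside 11.4%). They were unevenly spread. When neighbouring peaks with midpoints at most 15 kb apart were joined within a segment, a cluster of 8 peaks over 29.3 kb (chr2:74188098-74217421) held 6 of the lower peaks. No other cluster at this distance held as many lower peaks, and over all peaks 8.31% fell. Both Hox13-/- libraries lay below both wild-type libraries in 7 of these 8, a pattern found in 29.6% of all peaks. The median difference of the 8 was -0.53. The bounds of such clusters follow the joining distance. At 10 kb this one split into 2 peaks that both fell and 6 peaks of which 4 fell, and at 25 kb it joined its neighbours in a stretch of 16 peaks over 85.9 kb, of which 10 fell and 1 rose. The peak with the largest decrease of the landscape belongs to it.

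That peak, chr2:74190549-74191064, 477.5 kb before *Hoxd13*, had rLog values of 5.91 and 6.17 in wild type against 4.89 and 4.56 in Hox13-/-. The groups stood clearly apart, with a difference of -1.31 (95% interval -1.57 to -1.06, adjusted p 8.24e-21). It holds a CAATAAA string, shown in capitals above, and was in the peak lists called by the authors in both wild-type libraries and in neither Hox13-/- library. The neighbouring peak chr2:74188098-74188645 measured 6.09 and 5.87 in wild type against 5.20 and 5.26 in Hox13-/-, a difference of -0.75 (-1.004 to -0.494, adjusted p 4.06e-07). No HOX13-type string of these letters is in it. Another 463.7 kb before *Hoxd13*, chr2:74204461-74204666, is shorter and weaker, with 4.29 and 4.34 in wild type against 3.68 and 3.53 in Hox13-/- (difference -0.71, -0.96 to -0.47, adjusted p 7.43e-07). It too was listed in both wild-type libraries alone and holds CAATAAA. Further along, chr2:74209551-74209764 had 4.10 and 4.65 against 3.74 and 3.86 (difference -0.58, adjusted p 1.19e-04). Its wild-type replicates differed most, and without wild-type replicate 2 the difference was -0.30 with an adjusted p of 0.194. Just beside it, chr2:74209270-74209405 fell by 0.47 (adjusted p 0.00113), with 3.65 and 3.70 in wild type against 3.17 and 3.24 in Hox13-/-. The last peak of the cluster, chr2:74217170-74217421, fell by 0.45 (adjusted p 0.00392), but not past the threshold without wild-type replicate 1 (-0.29, adjusted p 0.219) or without Hox13-/- replicate 2 (-0.38, adjusted p 0.0883).

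Not all open sites of this cluster moved. Its strongest peak, chr2:74201512-74202130, the fourth highest of the landscape in wild type, had 6.65 and 6.64 in wild type against 6.74 and 6.89 in Hox13-/-. Its difference of 0.17 (-0.08 to 0.42) did not pass the test (adjusted p 0.358). The difference ranged from 0.10 to 0.24 when 1 library was left out, and was 0.077 with the GC correction. This peak lies between chr2:74190549-74191064 and chr2:74204461-74204666, which fell. The peak directly beside it, chr2:74202925-74203291, did not pass either (-0.24, adjusted p 0.178). The strongest peak holds 2 TGACAG strings, the core bound by MEIS proteins, which are known HOX co-factors. That string was in 12.9% of landscape peaks, beside 18.1% of all peaks. It was in 1 peak that fell (the -0.98 peak chr2:74075666-74076103), 2 that rose and 5 that did not pass, and its part in these values was not tested.

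On the *Atp5g3* side of the desert, a cluster of 4 peaks over 5.96 kb (chr2:73977460-73983416) had positive differences throughout, from 0.19 to 0.48 with a median of 0.27, and 1 of the 4 rose. The next cluster, 8 peaks over 13.9 kb (chr2:74062251-74076103), had negative differences throughout, with a median of -0.21. At a joining distance of 25 kb it also took in chr2:74091236-74091584, which rose, and the peak beside it. The last of the 8, chr2:74075666-74076103, fell from 6.03 in both wild-type libraries to 5.10 and 5.00 in Hox13-/-. The difference was -0.98 (-1.24 to -0.73, adjusted p 7.57e-12), and the stretch shown above holds TTTATTG, which is CAATAAA on the minus strand. The peak was listed in both wild-type libraries and in neither mutant one. In the weakest peak of the landscape, chr2:74063055-74063145, the values were 2.77 and 3.12 in wild type against 2.65 and 2.57 in Hox13-/- (difference -0.33, adjusted p 0.0164). That call was lost without wild-type replicate 2 (-0.15, adjusted p 0.439), without Hox13-/- replicate 2 (-0.29, adjusted p 0.109) and with the GC correction (-0.27, adjusted p 0.0694). The other 6 peaks of the cluster differed by -0.16 to -0.26 and did not pass.

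A site 275.1 kb before *Hoxd13*, chr2:74392956-74393367, was the other one to fall by over 2-fold. Its rLog was 5.21 and 4.99 in wild type against 4.01 and 4.11 in Hox13-/-, a difference of -1.04 (-1.30 to -0.78, adjusted p 3.94e-13). It holds none of the searched HOX13-type strings. The difference was below 2-fold but still past the adjusted p without wild-type replicate 1 (-0.93), without Hox13-/- replicate 1 (-0.99) and with the GC correction (-0.97), and in these 3 fits it was smaller than that of chr2:74075666-74076103 (-0.98, -1.03 and -1.07). A weak peak beside it, chr2:74393433-74393531, fell as well, from 3.04 and 3.00 to 2.61 and 2.56 (-0.44, adjusted p 8.07e-04). About 12.1 kb away on the *Atp5g3* side of this pair, chr2:74380690-74381373 rose.

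All 4 peaks that rose were in the gene desert. The clearest, chr2:74091236-74091584, had 4.74 and 4.81 in wild type against 5.48 and 5.52 in Hox13-/- (difference 0.72, 0.47 to 0.98, adjusted p 1.24e-06). The lists of both Hox13-/- libraries hold it and those of wild type do not, and it lies 15.5 kb from the -0.98 peak. The next, chr2:74265577-74266217, rose from 5.88 and 5.76 to 6.39 and 6.38 (0.57, 0.32 to 0.82, adjusted p 1.95e-04). Within 5.96 kb of it, chr2:74271783-74271937 fell by 0.41 (adjusted p 0.00823), and 2 more peaks up to chr2:74273811-74274014 fell, so both directions occurred in a cluster of 6 peaks over 8.80 kb. The first of these calls was lost without wild-type replicate 2 (adjusted p 0.0647) and without Hox13-/- replicate 2 (adjusted p 0.105). The middle one, chr2:74272587-74272915, fell by 0.43 (adjusted p 0.00922), a call lost without wild-type replicate 1 (adjusted p 0.286) and without Hox13-/- replicate 1 (adjusted p 0.0751). The last of the 3, chr2:74273811-74274014, fell from 4.27 and 4.23 to 3.75 and 3.48 (-0.63, -0.88 to -0.39, adjusted p 1.47e-05). At 690.0 kb before *Hoxd13*, chr2:73978150-73978485 rose from 4.59 and 4.57 to 4.98 and 5.14 (0.48, adjusted p 0.00254), although not without Hox13-/- replicate 2 (0.40, adjusted p 0.0833). The fourth, chr2:74380690-74381373, was already the second strongest peak of the landscape in wild type, with 7.38 and 7.06, and measured 7.69 and 7.52 in Hox13-/- (0.39, 0.15 to 0.64, adjusted p 0.0136). Its call was lost without wild-type replicate 2 (0.23, adjusted p 0.307), without Hox13-/- replicate 1 (0.31, adjusted p 0.203) and with a GC correction (0.30, adjusted p 0.0803).

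**Figure D3:**
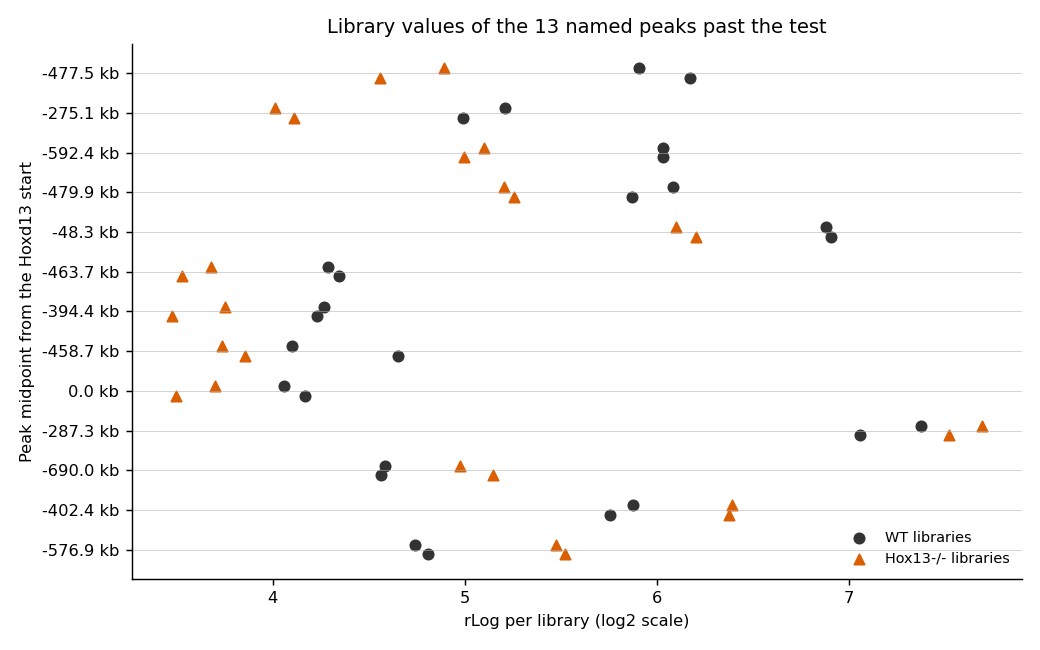
rLog value (log2 scale) in each of the 4 libraries for the 13 named peaks that passed the test, by distance from the *Hoxd13* start, with wild-type and Hox13-/- points marked separately. In each of them both points of a genotype lie on the same side of both points of the other, from the -1.31 peak to the 0.72 peak. They were chosen for passing the test on these same values, and nearly all peaks that pass are apart in this way. Among all lower peaks it was 5062 of 5146, and among all higher peaks 7014 of 7040.

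The remaining lower peaks of the desert were weak. In chr2:74243838-74244026 the difference was -0.34 (adjusted p 0.0399), a call lost whichever library was left out (adjusted p 0.0838 to 0.204). The peak nearest to *Lnpk*, chr2:74486457-74486626, fell from 3.90 and 3.64 to 3.33 and 3.25 (-0.48, adjusted p 0.00118), but not past the threshold without wild-type replicate 1 (adjusted p 0.101).

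Other strong sites of the desert did not pass the test. The peak chr2:73952540-73953245 measured 6.68 and 6.59 in wild type against 6.85 and 6.72 in Hox13-/- (0.16, -0.09 to 0.41, adjusted p 0.406). Its difference ranged from 0.094 to 0.22 when 1 library was left out. In chr2:74239502-74240013 the groups overlapped, with 6.52 and 6.27 against 6.09 and 6.58 (-0.06, -0.32 to 0.19, adjusted p 0.765). With the level divided by peak length, the ranking of the strongest wild-type sites changed. The *Lnpk* start peak stayed first, at 8.21 on the log2 scale per kb, followed by chr2:73925168-73925409 at 7.91, which stood twelfth before. Neither passed the test.

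*Lnpk* spans 59.1 kb (chr2:74520291-74579435, minus strand, ENSMUSG00000009207.15) and held 1 peak, at its start site. This peak, chr2:74578619-74579203, was the strongest of the landscape and higher than 93.4% of all peaks in wild type. It measured 7.37 and 7.50 in wild type against 7.51 and 7.10 in Hox13-/-, overlapping values with a difference of -0.13 (-0.37 to 0.12, adjusted p 0.503). The peak also overlaps an exon of the gene 4930445N08Rik, so that it cannot be given to either gene alone. The introns of *Lnpk* held no peak. *Atp5g3*, at the far end (chr2:73908447-73911326, minus strand, ENSMUSG00000018770.9), also had a single peak at its start, chr2:73911150-73911516, with 5.71 and 5.68 in wild type against 5.52 and 5.47 in Hox13-/- (-0.20, -0.45 to 0.06, adjusted p 0.293). At both start sites the interval of the difference includes 0 and reaches down to -0.37 at *Lnpk* and -0.45 at *Atp5g3*. With the GC correction the differences were -0.0021 at *Lnpk* and -0.09 at *Atp5g3*.

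Between *Lnpk* and *Evx2*, all 5 peaks had both Hox13-/- libraries below both wild-type libraries, beside 29.6% of all peaks, and 4 of the 5 fell, beside 8.31% of all peaks. The strongest, chr2:74619733-74620346, 48.3 kb before *Hoxd13*, was weaker in wild type than only the *Lnpk* start peak and the peak 287.3 kb before *Hoxd13*. Its rLog went from 6.88 and 6.91 to 6.10 and 6.20, a difference of -0.74 (-0.99 to -0.49, adjusted p 3.19e-07). It was the only one of the 20 lower peaks in the lists of all 4 libraries. It sits in a cluster of 4 peaks within 2.84 kb (chr2:74617771-74620607), in which chr2:74617771-74618041 also fell, from 5.20 and 5.09 to 4.60 and 4.64 (-0.52, adjusted p 9.35e-04). Another member, chr2:74619330-74619611, fell with 5.00 and 5.06 against 4.51 and 4.86 (-0.34, adjusted p 0.0456), a call lost in 3 of the 4 fits that left out a library, with adjusted p values of 0.119, 0.189 and 0.525, and also when the upper 75% of peaks were tested (adjusted p 0.0594). The fourth had 4.14 and 3.98 against 3.79 and 3.68 and did not pass (-0.32, adjusted p 0.0522). The fifth peak, chr2:74649594-74649756, is 18.6 kb before *Hoxd13*, behind the end of *Evx2*, and fell from 3.82 and 3.94 to 3.43 and 3.29 (-0.52, adjusted p 3.65e-04).

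From *Evx2* to the end of *Hoxd13* there were 11 peaks, of which 1 fell and 10 did not pass. The share that fell, 9.09%, is near the 8.31% of all peaks. The median difference was -0.06, and it was -0.27 without wild-type replicate 2, when 2 peaks fell, -0.02 without wild-type replicate 1 and -0.23 over the upper 75% of peaks by mean signal. These peaks were short and GC-rich, with a median GC content of 60.2%, beside 47.2% over the landscape. *Evx2* (chr2:74652991-74659557, minus strand, ENSMUSG00000001815.15) held 4 weak peaks. Nearest to its start, chr2:74659026-74659141 had 3.57 and 3.74 in wild type against 3.63 and 3.69 in Hox13-/-. The values overlapped (0.01, -0.23 to 0.25, adjusted p 0.963). In the intronic peak beside it, chr2:74658718-74658859, the genotypes overlapped too, with 3.32 and 3.01 against 3.20 and 3.07 (-0.03, -0.26 to 0.19, adjusted p 0.877). Towards the end of the gene, chr2:74655490-74655661 measured 3.88 and 3.44 against 3.56 and 3.65 (-0.05, -0.29 to 0.19, adjusted p 0.811). Its neighbour chr2:74655839-74656038 had 4.35 and 3.86 against 3.87 and 3.81 (-0.27, -0.51 to -0.02, adjusted p 0.127). There the wild-type replicates lay further apart than the genotypes' means. The difference was -0.51 without wild-type replicate 2 but -0.02 without wild-type replicate 1. With the GC correction it was -0.12 (adjusted p 0.582).

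*Hoxd13* (chr2:74668310-74671599, plus strand, ENSMUSG00000001819.4) held 2 peaks and had a further pair just before its start. The bases before the RefSeq start, chr2:74667975-74668224 on the plus strand of GRCm38.p6, are shown with capitals for those inside a peak.
*Hoxd13* promoter, RefSeq GRCm38.p6: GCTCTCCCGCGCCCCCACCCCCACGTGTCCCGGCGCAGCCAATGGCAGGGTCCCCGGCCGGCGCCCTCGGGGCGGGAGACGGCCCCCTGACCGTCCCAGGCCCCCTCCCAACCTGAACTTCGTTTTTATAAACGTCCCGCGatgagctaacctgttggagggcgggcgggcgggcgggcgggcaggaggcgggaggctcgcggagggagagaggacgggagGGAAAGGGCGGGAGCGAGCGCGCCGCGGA
The first run of capitals belongs to chr2:74667954-74668115 and the second to the start of chr2:74668196-74668383, with 80 bases between them. The RefSeq start is upstream of the GENCODE start, and the second peak spans both. No HOX13-type string of the searched letters is in this stretch.

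At the start site, accessibility fell. The peak chr2:74668196-74668383 had 4.06 and 4.17 in wild type against 3.70 and 3.50 in Hox13-/-, with no overlap (-0.52, -0.76 to -0.27, adjusted p 6.08e-04). Without Hox13-/- replicate 2 the difference was -0.41 and the adjusted p was 0.0556. With its GC content of 79.8% it is among the sites that a GC correction moves, to -0.37 with an adjusted p of 0.0265. The peak 80 bases before it had 4.35 and 4.34 in wild type against 3.99 and 4.17 in Hox13-/-, apart but not past the threshold (-0.26, -0.52 to -0.01, adjusted p 0.137). Its difference was -0.12 with the GC correction (adjusted p 0.58). It was -0.17 without Hox13-/- replicate 1 and -0.35 without Hox13-/- replicate 2. Both of these peaks were in the lists of both wild-type libraries and of neither Hox13-/- library. In contrast, chr2:74667222-74667392, about 1.0 kb before the start, was in the list of each Hox13-/- library but of no wild-type one, with 3.88 and 3.78 against 4.06 and 4.05 (0.22, -0.03 to 0.47, adjusted p 0.211). In the exon peak chr2:74670609-74670764 the groups overlapped, with 3.55 and 3.50 against 3.49 and 3.62 (0.03, -0.21 to 0.27, adjusted p 0.880). The mutant allele carries lacZ in *Hoxd13*. Where it sits relative to these peaks was not analysed here, and its part in their values was not tested. The strongest peak between both genes, chr2:74663612-74663814, 4.6 kb before *Hoxd13*, measured 5.59 and 5.48 against 5.27 and 5.34 and did not pass (-0.23, adjusted p 0.205).

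**Figure D4:**
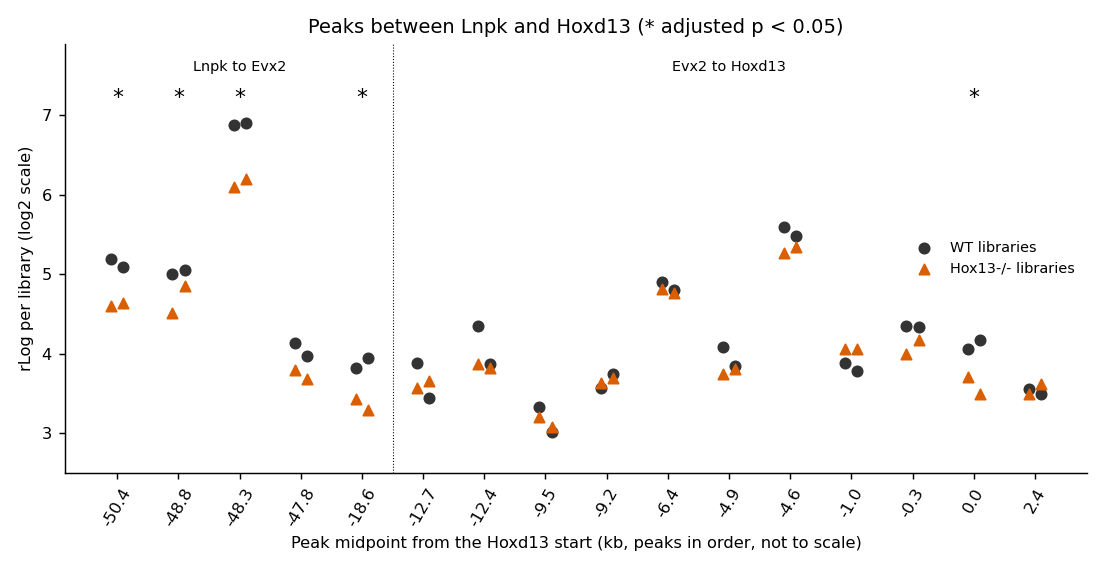
rLog value (log2 scale) in each library for the 16 peaks between *Lnpk* and the end of *Hoxd13*, ordered along the chromosome, wild type and Hox13-/- marked separately and called peaks starred. Hox13-/- is below wild type in all 5 peaks between *Lnpk* and *Evx2*, the genotypes overlap in the 4 *Evx2* peaks, and between *Evx2* and the *Hoxd13* start Hox13-/- is below in the peaks at -4.9, -4.6, -0.3 and 0.0 kb and above in the one at -1.0 kb.

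The authors called peaks in each library before merging, and the table names the lists that hold each merged peak. The names of these lists carry the input sample of a histone ChIP-seq, and whether it served as the control in calling them, and its part in which peaks are listed, was not tested. The lists come from the same reads as the rLog values and are given as a description. Of the 62 landscape peaks, 13 were in all 4 lists, 27 in wild-type lists alone and 13 in Hox13-/- lists alone. That is 43.5% and 21.0% in a single genotype's lists, whereas over all peaks it was 16.6% for wild type and 32.2% for Hox13-/-. Of the 7 peaks in both wild-type lists and no mutant list, 6 were among those that fell (85.7%, with a median difference of -0.63 over the 7), and over all peaks 67.6% of the 1848 so listed fell. Of the 13 peaks in all 4 lists, 1 fell and 1 rose (7.69% each), near the 9.53% and 7.81% of all peaks so listed. Among the peaks listed in 1 genotype alone, 28 were in the list of a single library (20 wild-type and 8 Hox13-/-), and these were shorter, with a median length of 155.5 bp beside 210 bp for the landscape and 250 bp for all peaks.

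HOX13-type strings were in 12 of the 62 peaks, 19.4%, beside 12.8% of all peaks. In windows of 300 bases around the midpoint the share was 19.4%, beside 13.1% of all peaks and 8.57% of 32851 RefSeq promoter windows of the same length. Counted over whole peaks of the table, a string was in 21.4% of the lower, 22.7% of the higher and 10.5% of the other peaks. In the windows of equal length it was in 5 of the 20 landscape peaks that fell and 7 of the 38 that did not pass, and none of the 4 that rose held one there. Over all peaks these windows gave 21.8% of the lower, 17.5% of the higher and 11.6% of the other peaks. The 12 peaks with a string were stronger in wild type, with a median rLog of 5.60 beside 4.10 for the 50 without, and longer, at 319 bp beside 188.5 bp, and a longer peak has more room for a string. TGACAG was in 8 peaks (12.9%, beside 18.1% of all peaks) and a core of the CTCF motif, named for the protein that anchors chromatin loops, was in 1 (1.61%, beside 5.95%). All strings were read on both strands, and those for HOX13, MEIS and CTCF differ in their letters. Most landscape peaks, 54 of 62, were intergenic, and these held 19 of the 20 lower and all 4 of the higher peaks.

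The neighbouring stretches of chromosome 2 had other counts. The 763.6 kb before the landscape (chr2:73144399-73907999) held 41 peaks, of which 7 fell (17.1%) and 2 rose, with a median difference of -0.12. There, 4 fell without wild-type replicate 1 (median -0.09), 10 after median centring and 11 with the GC correction. In the *HoxD* cluster beyond *Hoxd13* (chr2:74671601-74765142), 9 of 30 peaks rose (30.0%) and the other 21 did not pass, with a median difference of 0.18. After median centring, quantile or loess scaling, 6 rose and 1 fell there, and 3 to 5 rose when 1 library was left out. The 763.6 kb on the telomeric side (chr2:74765143-75528743) held 55 peaks, of which 19 rose (34.5%) and 1 fell, with a median difference of 0.26. The stretches were not tested against each other.

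**Figure D5:**
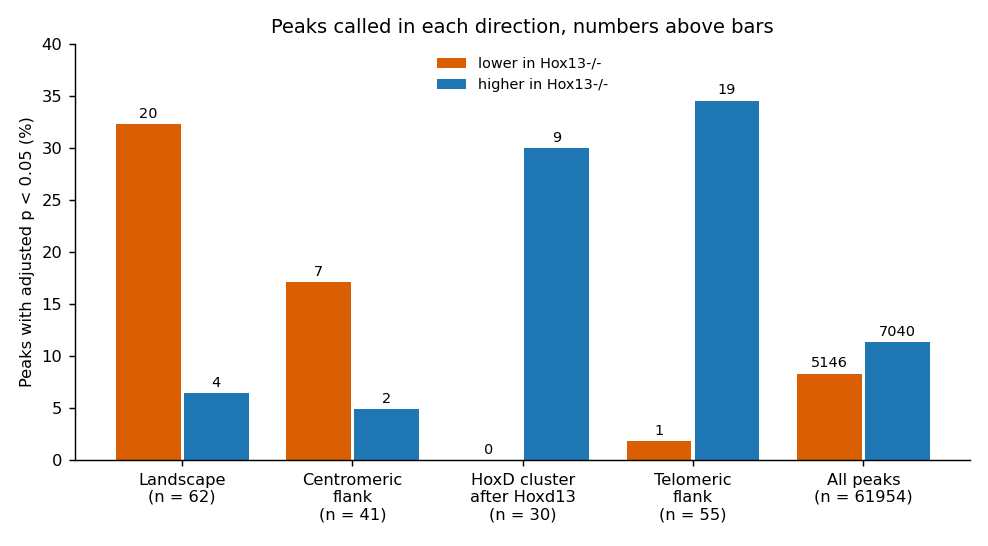
Percent of peaks lower and higher in Hox13-/- (adjusted p under 0.05) in the landscape, the flank of the same length before it, the *HoxD* cluster after *Hoxd13*, the flank of the same length after the cluster, and the whole table. Lower peaks make up 32.3% of the landscape and 8.31% of all peaks, and higher peaks make up 34.5% of the telomeric flank.

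The start sites of the other *HoxD* genes can be set beside that of *Hoxd13*. Of 8 genes from *Hoxd12* to *Hoxd1*, 7 had a peak within 1 kb of a start site, 14 peaks together, of which 6 rose, beside 11.4% of all peaks, and 8 did not pass. With each of the 3 other scalings 5 rose, and 2 to 4 rose when 1 library was left out. The median difference was 0.27 (range -0.06 to 0.65). At *Hoxd8*, which encodes a homeodomain protein from the middle of the cluster, chr2:74704195-74704956 rose from 5.34 and 5.49 to 6.16 and 5.97 (0.65, adjusted p 1.39e-05). At *Hoxd12*, the direct neighbour of *Hoxd13*, chr2:74674952-74675221 measured 5.51 and 5.54 in wild type against 5.43 and 5.50 in Hox13-/- (-0.06, adjusted p 0.781). At *Hoxd11* one of its peaks, chr2:74681560-74681887, rose from 5.15 and 4.96 to 5.48 and 5.41 (0.39, adjusted p 0.0186). None of these 14 differences was as negative as the -0.52 of the *Hoxd13* start peak, which is the most negative of 3 peaks within 1 kb of that start. The others there differed by -0.26 and 0.22 and did not pass. The -0.52 was -0.37 with the GC correction and -0.41 without Hox13-/- replicate 2.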

How the data were processed

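ATAC-seq of distal forelimb buds was analysed in 2 wild-type and 2 Hox13-/- libraries. A further 2 proximal libraries were not analysed here. According to the labels and methods, the authors aligned reads to mm10 with Bowtie2 2.3.1, used SAMtools 1.4.1 and HOMER 4.9.1, called peaks per library with MACS2 2.1.1.20160309, merged them and deposited rLog values, on a log2 scale, from DESeq2 (version not given in the sources used here). The handling of duplicates and of the Tn5 offset is not given in the sources used here. Fold changes and p-values of the authors' own comparison are in the same table and were not used. Peak coordinates were read as counted from 1, which the table does not state. Depth per peak is unknown, so no counting interval is given.

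Genotypes were compared with limma 3.58.1 in R 4.3.3 (genotype term, variance trend, two-sided, Benjamini-Hochberg over all 61954 peaks). The threshold was an adjusted p of 0.05. An exact permutation test of 2 against 2 cannot go below 0.333, while limma borrows its estimate of spread from all peaks. Here that estimate followed the signal level almost alone. The standard error was 0.128 at chr2:74209551-74209764, where the wild-type standard deviation was 0.389. It was 0.130 at chr2:74075666-74076103, where that deviation was 0.0011. Intervals and p-values therefore hardly reflect the spread of a peak's own replicates, and very small p-values rest on the shared estimate. On simulated data for this comparison over 61954 peaks, the fit recovered 50 of 50 peaks changed by -1.5, 50 of 50 by 1.5, 30 of 50 by -0.5 and 20 of 50 by 0.5, with 6 others called. Only 50 peaks were changed at each size there, whereas 5146 peaks were lower and 7040 higher in the real libraries. How often the fit finds changes of these sizes in the real libraries was not tested. Genes came from GENCODE M21, sequence from GRCm38, and promoters from RefSeq GRCm38.p6, where 4 of 4 members matched. Named peaks were the 8 most negative and up to 6 most positive of those called, the 6 strongest in wild type, and those on the 4 genes or within 1 kb of their start sites, 25 in all. Any other peak named in the text was chosen after its values were seen. Members and lists were chosen with earlier results of these data known. Alternatives were 3 other scalings, no trend, filters keeping the upper 75% or 50% of peaks, other thresholds, a replicate block, a GC correction, other joining distances and leaving out each library. Python 3.11.15, pandas 2.3.3, numpy 2.4.6 and matplotlib 3.10.9 were used.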

Additional observations from a re-analysis of the deposited data

How the results depend on the processing

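Of the 20 lower and 4 higher peaks, 11 and 2 passed in every alternative fit that tested them. The count of lower peaks was 7 when only the upper 50% of peaks by mean signal were tested, which keeps 25 landscape peaks, and 15 to 17 when 1 library was left out. The count of higher peaks was 3 to 5 when 1 library was left out. The count lower by over 2-fold was 3 after median centring, quantile or loess scaling, 1 in the upper 50% and 1 to 2 when 1 library was left out, and 7 fell by over 1.5-fold. The median difference was -0.23 after median centring, -0.22 after quantile and -0.22 after loess scaling, and -0.19 to -0.18 when 1 library was left out, whereas median centring moved the calls over all peaks from 5146 lower and 7040 higher to 6811 and 6017. The *Hoxd13* start peak ranged from -0.62 to -0.41 when 1 library was left out. Named peaks that did not pass changed sign as follows. The first *Evx2* peak (chr2:74655490-74655661) was 0.10 (0.0975) with a GC correction and with block and GC correction, the *Evx2* start peak -0.02 (-0.0237) after median centring and -0.0017 after loess, and the *Hoxd13* exon peak -0.0021 after median centring and -0.040 with a GC correction, with or without the block. When 1 library was left out, chr2:74239502-74240013 ranged from -0.31 to 0.18, the *Lnpk* start peak from -0.33 to 0.079, the first *Evx2* peak from -0.27 to 0.17, the *Evx2* intron peak from -0.19 to 0.13, the *Evx2* start peak from -0.072 to 0.094, and the *Hoxd13* exon peak from -0.034 to 0.098. The causes were not tested. Replicate numbers are shared by both genotypes but name no shared litter or day, and the deviations of same-numbered libraries correlated at -0.011 over all peaks and -0.14 over the landscape. With the replicate number as a block, 20 landscape peaks were lower and 4 higher, as without it. Depth per peak is unknown, and weak peaks are shrunk most.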
